A study of Drosophila melanogaster with 102 samples.

Results

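The genes of the JAK-STAT pathway of the fruit fly Drosophila melanogaster were followed through every library of a study of maternal diet. The set was taken by gene name and held 8 of the 14312 genes in the deposited count tables. Its members were the cytokines upd1, upd2 and upd3, the receptor dome, the receptor-like antagonist et, the kinase hop, the transcription factor Stat92E and the feedback inhibitor Socs36E. In the BDGP6 annotation the cytokine genes lie close together on chromosome X, upd2 (FBgn0030904) at 18240654-18243284, upd3 (FBgn0053542) at 18277233-18284596 and upd1 (FBgn0004956) at 18305354-18309291. The genes dome (FBgn0043903, 19676061-19683518) and et (FBgn0031055, 19672312-19675891) are neighbours further along chromosome X, and hop (FBgn0004864) lies at 11360930-11368098 of the same chromosome. Stat92E (FBgn0016917) lies on 3R at 20535323-20552311 and Socs36E (FBgn0041184) on 2L at 18138675-18152417.

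The unpaired cytokines are secreted proteins that bind Domeless, the product of dome, a receptor distantly related to the vertebrate interleukin-6 receptor family. Ligand binding activates the Janus kinase Hopscotch, the product of hop, which phosphorylates Stat92E, and Stat92E then enters the nucleus and activates target genes. Socs36E is a target whose product damps the pathway, and et (eye transformer, also called latran) encodes a short receptor that lacks signalling activity and antagonises dome. In adult flies upd1 is known from the hub cells of the testis stem cell niche and from the polar cells of the ovary, upd2 from the fat body as a nutrient-dependent signal to the brain, and upd3 from blood cells and from gut cells under damage or infection.

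RNA was sequenced from whole flies of strain W1118 (white mutant), so that all groups shared this background. Mothers ate a high sugar diet (HSD), a high fat diet (HFD) or a control diet (CD) during 7 days, the fathers were fed CD, and all offspring ate CD at 25 °C. The groups were mothers on HSD, HFD or CD, and sons and daughters of mothers on each diet on day 0, 10 or 50. For progeny, "HSD", "HFD" and "CD" name the diet of the mother. There were 102 libraries in 21 groups, 15 of mothers and 87 of progeny (44 of sons and 43 of daughters), and 17 groups had 5 libraries. Daughters of CD mothers on day 0 and daughters of HSD mothers on day 50 had 4 libraries each, sons of HFD mothers on day 50 had 3 and sons of HSD mothers on day 50 had 6. The age of the mothers was not labelled, and the labels do not say whether a group's libraries were separate flies or cultures, so p-values measure the spread between libraries, which may be technical.

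Library totals ran from 6332907 to 19469296 counts, and levels are given as CPM, counts scaled to library size with TMM factors. A count of 3 in a library was worth 0.154 to 0.474 CPM depending on depth. The levels are not scaled by transcript length and are compared between samples, not between genes. Levels were scaled over all libraries of a table and fold changes over the libraries of each fit, so the 2 scales were offset by -0.34 to 0.23 log2 units, as read from Stat92E in 39 comparisons of progeny. None of 74 calls had opposite directions on the 2 scales, and small fold changes are to be read against this offset. Over all genes, 15 of the 87 progeny libraries were most similar to a sex or day other than their label, and 2 of these to the other sex. The library m8, labelled as a son of an HFD mother on day 0, was most similar to daughters on day 50, with a summed level of 5 testis germline markers of 0.258 CPM and of 4 ovary germline markers of 2290 CPM. The library f12, labelled as a daughter of an HSD mother on day 0, was most similar to sons on day 0, with testis markers at 694 CPM. Among sons, m27 (labelled HSD, day 10) was most similar to day 50, while m12 (HSD, day 0), all of m36, m38 and m39 (the HFD group on day 50) and m40 (HSD, day 50) were most similar to day 10, and m45 (HSD, day 50) to day 0. Among daughters, f8 (HFD), f13 and f15 (both HSD) were labelled day 0 and most similar to day 10, and f21, f22 (HFD) and f27 (HSD) were labelled day 10, with f21 and f22 most similar to day 0 and f27 to day 50. Among CD sons of day 0, ovary germline markers summed to 31.8, 336 and 83.9 CPM in m1, m3 and m4, against 5.64 and 6.27 CPM in m2 and m5. All were kept under their labels, and values without them are given for some of the results that they change. Without m1, m3, m4, m8 and f12, 5 of 36 values compared no longer passed, and not all 5 are named below.

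Over the 102 libraries raw counts ran from 0 to 161 for upd1, 0 to 96 for upd2, 0 to 236 for upd3, 326 to 3570 for dome and 27 to 474 for et. They ran from 198 to 2965 for hop, 1087 to 5722 for Stat92E and 125 to 1961 for Socs36E. The genes dome, et, hop, Stat92E and Socs36E passed the filter on low counts in all 54 comparisons made, upd1 in 51, upd3 in 30 and upd2 in 15. In whole animals, fewer cells of a type and less RNA per cell cannot be told apart.

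**Figure D1:**
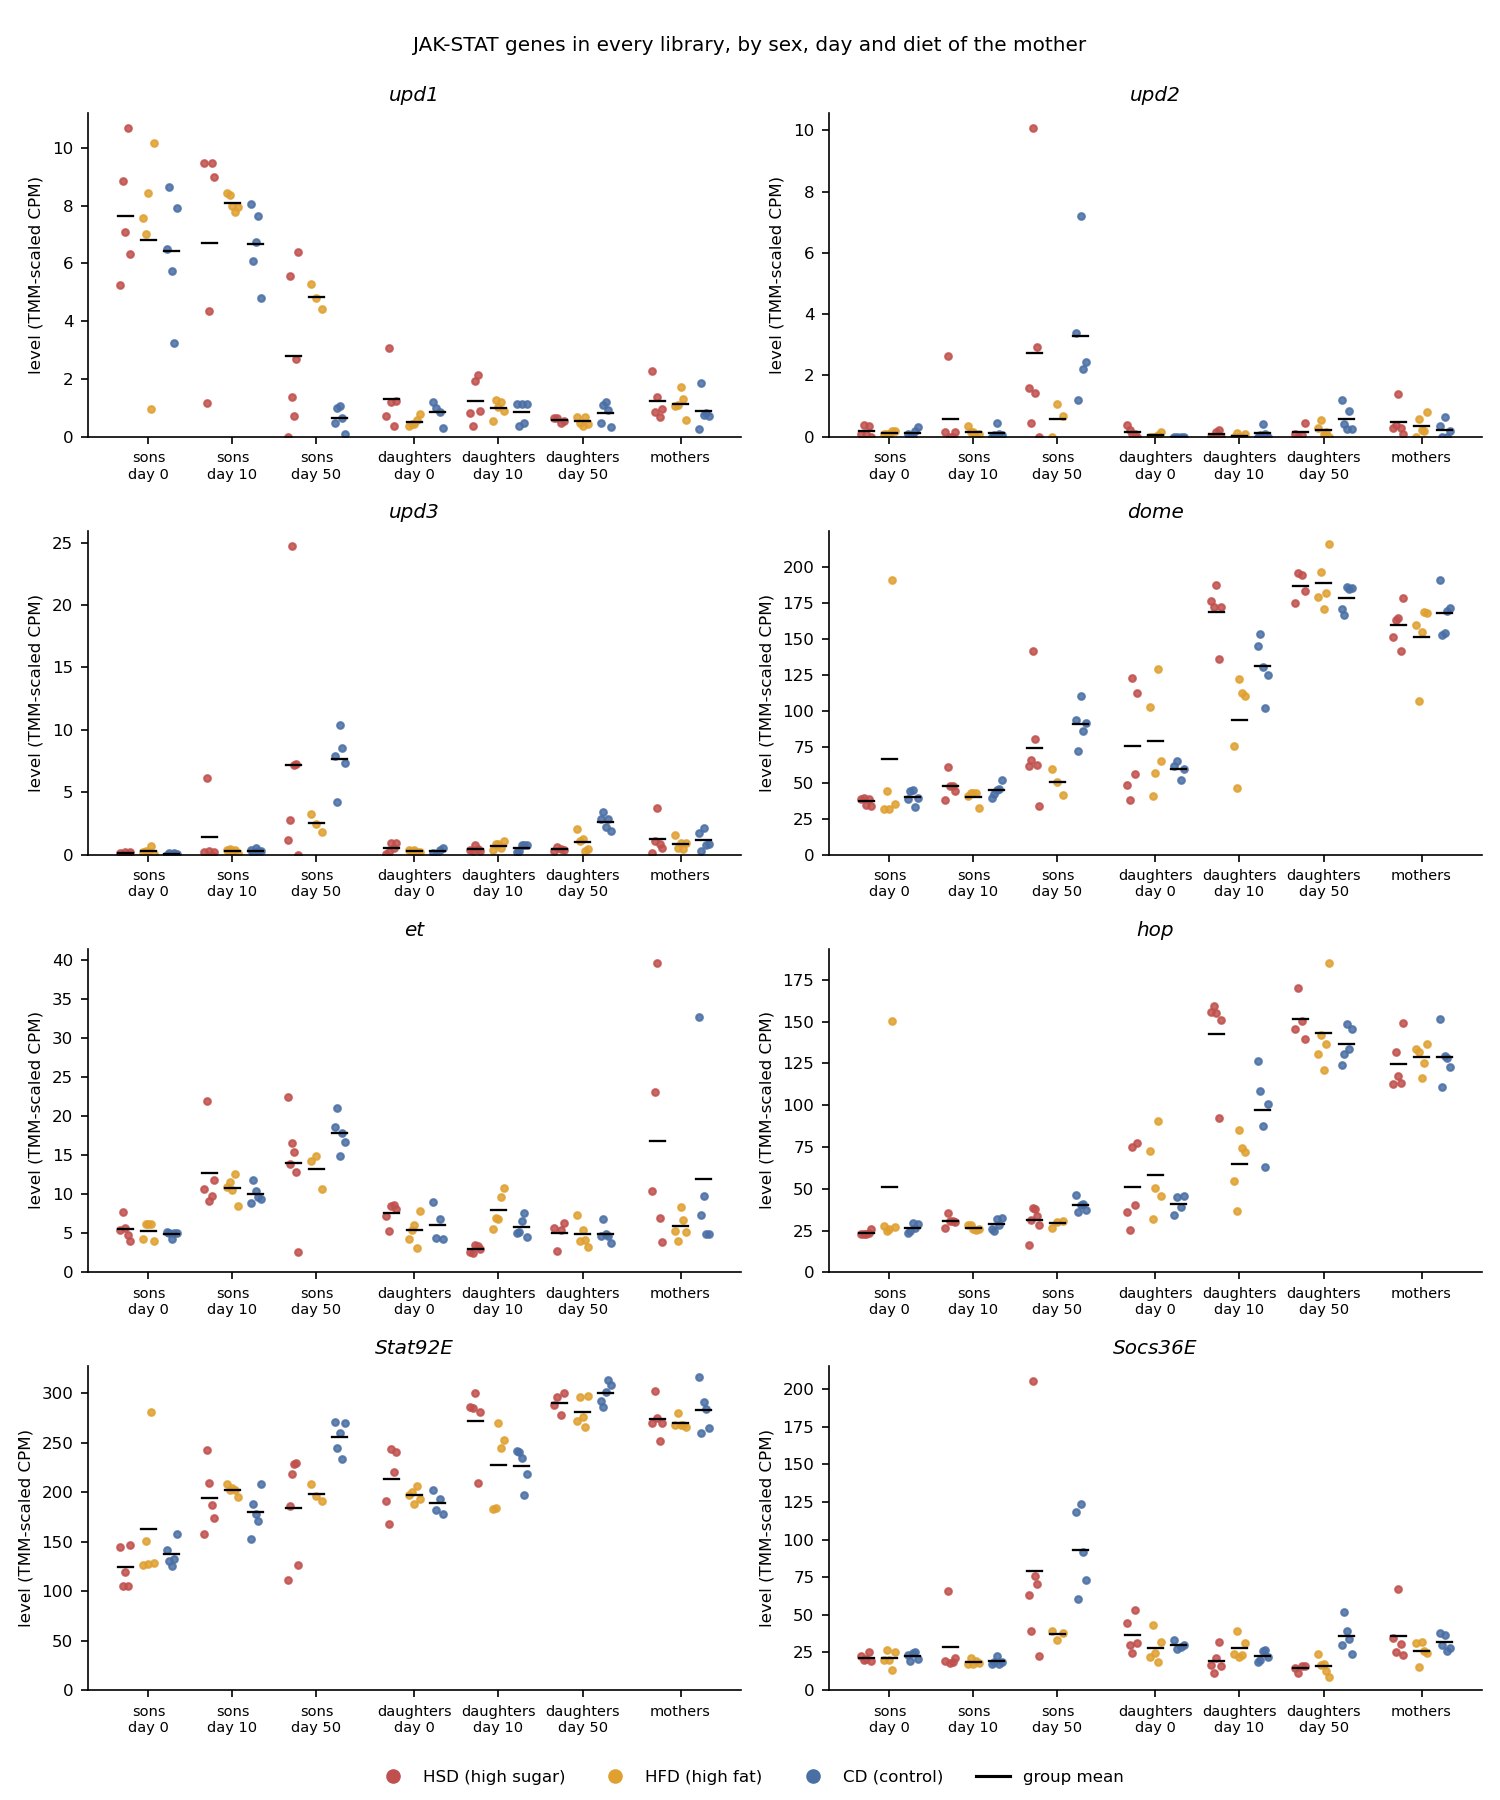
Level of each member (CPM, one panel per gene) in every library, with mothers and the progeny arranged by sex and day and coloured by maternal diet; each point is 1 library and each line a group mean. Levels of upd1 in sons lie between 0.947 and 10.7 CPM on day 0 and between 0 and 6.38 CPM on day 50, and the highest upd3 and Socs36E values, 24.7 and 206 CPM, are in sons on day 50.

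Levels of the members changed with age in sons. In sons of CD mothers all 8 members passed the threshold between day 50 and day 10, with upd1 lower on day 50 and the other members higher. The same comparison called 65.9% of the 12609 genes tested (edgeR quasi-likelihood test, Benjamini-Hochberg adjusted p under 0.05). Between day 10 and day 0 of the same sons, 3 of 8 members passed, where 27.9% of genes were called.

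upd1, the cytokine of the testis niche, had 6.51, 8.64, 5.75, 3.25 and 7.91 CPM in CD sons on day 0, 8.07, 6.08, 6.73, 7.63 and 4.79 CPM on day 10, and 0.484, 1.01, 1.05, 0.643 and 0.0906 CPM on day 50. The libraries of day 50 were all below those of day 10, and days 0 and 10 overlapped. The level fell with a log2 fold change of -3.37 ± 0.39 (SE; adjusted p = 6.31e-06, edgeR) on day 50 over day 10. In HFD sons upd1 had 5.28, 4.8 and 4.43 CPM on day 50, against 8.45, 8.36, 7.97, 7.77 and 7.94 CPM on day 10. These groups did not overlap, but the difference of -0.7 ± 0.52 on the log2 scale did not pass in a fit that held m8 (adjusted p = 0.756), and passed without m8 (-0.69 ± 0.14, adjusted p = 0.00213). The HFD fit called 1.59% of genes with m8 and 43.6% without it. In HSD sons upd1 had 5.55, 1.36, 0.719, 2.7, 0 and 6.38 CPM on day 50, against 9.49, 1.17, 4.35, 9.47 and 9 CPM on day 10. The HSD groups overlapped through m40 and m45 on day 50 and m27 on day 10 (-1.23 ± 0.73, adjusted p = 0.251). These are among the libraries most similar to another day. Without the libraries of that kind the fold change was -2.73 ± 0.63 (adjusted p = 0.00304), in a fit that called 55.9% of genes. Leaving out libraries because they resemble another day tends to widen a difference between days, so that value is not separate evidence.

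Testis germline markers moved with upd1. The summed level of 5 such markers (betaTub85D, aly, can, dj and Mst87F) lay between 25.2 and 266 CPM in CD sons on day 50, against 1400 to 1910 CPM on day 10, and all 5 were lower. In HFD sons the sum was 932 to 1030 CPM on day 50, against 1490 to 1740 CPM on day 10. In HSD sons on day 50 it ran from 118 to 1820 CPM, with m45 at 1820 CPM and m40 at 865 CPM, the libraries with the most upd1, against 71.4 to 2020 CPM on day 10, with m27 the lowest. The 4 accessory gland markers also fell in CD sons between these days. The part of these markers in the upd1 difference was not tested.

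**Figure D2:**
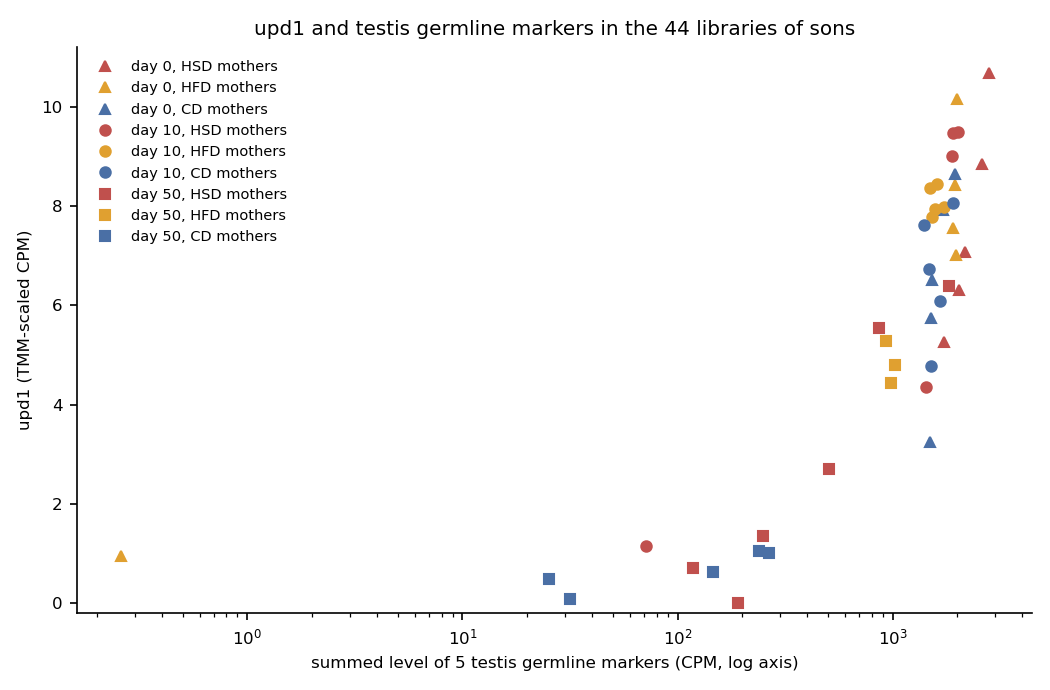
Level of upd1 (vertical axis, CPM) against the summed level of 5 testis germline markers (horizontal axis, CPM, log scale) in the 44 libraries of sons, with colours for maternal diet and shapes for day. CD sons on day 50 sit at the lower left with upd1 at 0.0906 to 1.05 CPM, HFD sons on day 50 lie at 4.43 to 5.28 CPM, and m8 stands alone at a marker sum of 0.258 CPM.

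upd3, the cytokine of blood and gut cells, had 7.91, 4.24, 10.3, 8.54 and 7.34 CPM in CD sons on day 50, against 0.351, 0.129, 0.508, 0.293 and 0.29 CPM on day 10. The groups lay far apart, with 442 counts in all on day 50 and 20 on day 10, and the level rose by 4.53 ± 0.37 on the log2 scale (adjusted p = 4.84e-07, edgeR). On day 10 over day 0, the 20 counts stood against 3 counts, a depth-scaled ratio of 5.96 with an exact 95% interval of 1.77 to 31.3 that covers counting error only. The call of upd3 on day 10 over day 0 was lost without m1, m3 and m4 (adjusted p = 0.194), which leaves only m2 and m5 on day 0. It held with any single library left out (adjusted p up to 0.0405). In HFD sons upd3 had 3.29, 2.48 and 1.84 CPM on day 50, against 0.356, 0.473, 0.244, 0.333 and 0.159 CPM on day 10. The HFD groups did not overlap, and the difference of 3.01 ± 0.69 missed the threshold with m8 in the fit (adjusted p = 0.0534) and passed without it (3.03 ± 0.48, adjusted p = 0.000338). In HSD sons it had 2.77, 24.7, 7.19, 7.29, 1.17 and 0 CPM on day 50, against 0.231, 6.14, 0.29, 0 and 0.231 CPM on day 10. High values in HSD sons were those of m41 on day 50 and m27 on day 10, and the value at 0 was that of m45. The fold change was 2.45 ± 1.2 (adjusted p = 0.215), 5.25 without m27 (adjusted p = 0.0161) and 1.39 without m41 (adjusted p = 0.442).

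upd2, the nutrient-dependent cytokine, was close to the counting limit on days 0 and 10 and was read on day 50. In CD sons it had 3.39, 1.21, 7.2, 2.2 and 2.45 CPM on day 50, against 0, 0.0647, 0.445, 0.0978 and 0.0725 CPM on day 10, or 194 counts against 10. The groups did not overlap, and upd2 rose by 4.3 ± 0.69 (adjusted p = 8.7e-05, edgeR). In HFD sons it had 0, 1.08 and 0.682 CPM on day 50, against 0 to 0.356 CPM on day 10, and was not tested under the filter. In HSD sons it had 0.463, 10.1, 1.44, 2.92, 1.59 and 0 CPM on day 50, and on day 10 m27 had 2.65 CPM while the other 4 libraries had 0 to 0.154 CPM. The HSD difference of 2.27 ± 1.18 did not pass (adjusted p = 0.224), and without m27 it was 4.84 (adjusted p = 0.0228).

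The receptor dome had 93.7, 72, 110, 85.9 and 91.5 CPM in CD sons on day 50, against 39.3, 42.1, 44.8, 45.3 and 51.8 CPM on day 10. It rose by 0.98 ± 0.12 (adjusted p = 9.49e-06, edgeR) with no overlap. The antagonist et had 18.6, 21.1, 14.9, 17.8 and 16.7 CPM on day 50, against 8.89, 11.8, 10.5, 9.68 and 9.43 CPM on day 10, and rose by 0.78 ± 0.11 (adjusted p = 3.42e-05). On day 10 over day 0 dome did not pass and et rose, by 1.03 ± 0.12 (adjusted p = 9.73e-06) in CD sons and by 1.06 ± 0.21 (adjusted p = 0.0076) in HFD sons. In HFD sons et had 10.9, 11.5, 10.5, 12.5 and 8.5 CPM on day 10, against 6.14, 6.13, 6.2, 3.98 and 4.26 CPM on day 0. The exons of et share 42 bases with Zw on the opposite strand, and no source at hand says whether counting used strand.

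The kinase hop and the transcription factor Stat92E changed less. In CD sons hop had 46.2, 36, 40.1, 41.1 and 37.2 CPM on day 50, against 25.7, 24.9, 31.8, 28.5 and 32.8 CPM on day 10, a rise of 0.44 ± 0.1 (adjusted p = 0.00177, edgeR). Stat92E had 271, 245, 260, 234 and 270 CPM on day 50, against 153, 188, 178, 171 and 208 CPM on day 10, a rise of 0.47 ± 0.09 (adjusted p = 0.000364). Neither pair of groups overlapped. Stat92E had also risen on day 10 over day 0, by 0.38 ± 0.09 (adjusted p = 0.00485). This call was lost without m1, m3 and m4 (adjusted p = 0.11), which leaves only m2 and m5 on day 0. It held with any single library left out (adjusted p up to 0.0215). In CD sons the markers of ovary germline were at 9.29 to 48.2 CPM on day 50, against 6.15 to 10.4 CPM on day 10. Their part was not tested.

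The feedback target Socs36E had 118, 60.5, 123, 92.1 and 72.8 CPM in CD sons on day 50, against 17.3, 18.8, 22.4, 17.5 and 18.9 CPM on day 10. Each library of day 50 was above each of day 10, and Socs36E rose by 2.26 ± 0.18 (adjusted p = 4.09e-07, edgeR). In HFD sons it had 39.5, 33.4 and 38.2 CPM on day 50, against 17, 21.5, 17.2, 19.5 and 17.8 CPM on day 10. It rose by 1.04 ± 0.22 (adjusted p = 0.0375), the only call among 7 members tested there, where 1.59% of genes were called. That call was lost without any of m7, m10, m21 to m25, m36, m38 or m39, with adjusted p up to 0.151, and without m8 it was 1.06 ± 0.12 (adjusted p = 4.93e-05). In HSD sons Socs36E had 38.9, 206, 76, 70.6, 62.9 and 22.7 CPM on day 50, against 19.4, 65.9, 18.3, 18.9 and 21.1 CPM on day 10. The highest values were again m41 on day 50 and m27 on day 10, and the difference of 1.5 ± 0.48 did not pass (adjusted p = 0.156). It passed without m27 (2.03, adjusted p = 0.0124) or without m45 (1.69, adjusted p = 0.0262), and was 0.79 without m41 (adjusted p = 0.317).

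In HSD sons no member of 8 passed on day 50 over day 10, and 0% of genes were called, with 2 members at an unadjusted p under 0.05 in edgeR and 1 called by DESeq2. Over all genes 3063 of 12681 had such a p in edgeR. Without m27 29.3% of genes were called, without m45 23.3% and without m41 0%. Without the libraries most similar to another sex or day, 55.9% of genes were called and 6 of 8 members passed. These were upd1, upd2 (5.36 ± 0.96, adjusted p = 0.000584) and upd3 (5.75 ± 0.92, adjusted p = 0.000296). The others were dome (0.97, adjusted p = 0.00426), et (0.7, adjusted p = 0.00771) and Socs36E (2.42 ± 0.34, adjusted p = 0.000149). That set was picked by likeness to the days compared, so these passes are not separate evidence of an age difference. On day 10 over day 0, 1 of 7 members passed in HFD sons, the rise of et, where 8.29% of genes were called, and none of 8 in HSD sons, where 0.442% were called, 3 were below an unadjusted p of 0.05 and none was called with DESeq2. Over all genes 2506 of 12681 were below that p in HSD sons. Without m45, a day 50 library in the same fit, et (1.18, adjusted p = 0.00785) and Stat92E (0.64, adjusted p = 0.0479) passed in HSD sons, where 11.9% of genes were then called.

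Other cell type markers moved in CD sons between day 50 and day 10. The gut progenitor marker esg lay at 4.44 to 12.5 CPM on day 50, against 3.74 to 7.54 CPM on day 10, and rose, with groups that overlapped. Of 5 plasmatocyte markers, genes of circulating blood cells, 3 were lower, with sums of 84.7 to 146 CPM on day 50, against 133 to 219 CPM on day 10. Muscle markers summed to 1280 to 2030 CPM on day 50, against 2630 to 3100 CPM on day 10, with 3 of 4 lower, and enterocyte markers to 2490 to 4340 CPM on day 50, against 309 to 3290 CPM on day 10, with 1 of 4 higher. In HSD sons on day 50 the library m41, highest in upd2, upd3 and Socs36E, also had esg at 28.3 CPM, against a group median of 5.35 CPM. The part of these markers in the cytokine values was not tested.

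**Figure D3:**
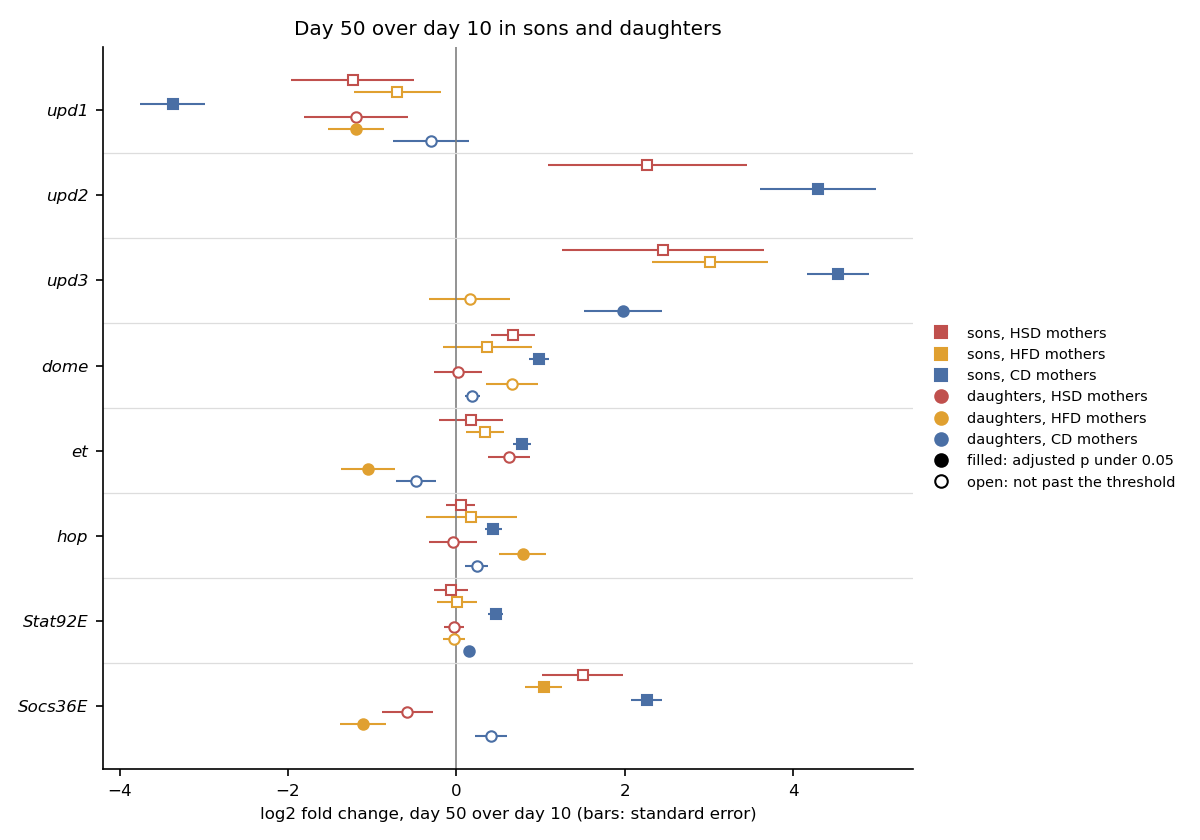
Log2 fold change of each member on day 50 over day 10 in sons and daughters of mothers on each diet (edgeR; bars are standard errors, filled points passed an adjusted p of 0.05). In CD sons upd1 lies at -3.37, upd3 at 4.53, upd2 at 4.3 and Socs36E at 2.26, while the values of CD daughters lie nearer to 0.

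In daughters of CD mothers dome and hop rose between day 0 and day 10, and upd3 by day 50. In CD daughters 3 of 7 members passed on day 10 over day 0, where 71.3% of genes were called, and 2 of 7 on day 50 over day 10, where 46.2% were called. The receptor dome had 61.4, 64.7, 51.6 and 59.3 CPM on day 0, 145, 153, 130, 102 and 125 CPM on day 10 and 170, 167, 186, 184 and 185 CPM on day 50. The kinase hop had 34.1, 45.2, 38.9 and 45.6 CPM on day 0, 126, 109, 87.8, 63.3 and 101 CPM on day 10 and 124, 131, 148, 134 and 146 CPM on day 50. Day 10 lay wholly above day 0 for both genes, with a rise of 0.96 ± 0.1 for dome (adjusted p = 1.09e-05, edgeR) and 1.06 ± 0.16 for hop (adjusted p = 7.69e-05). The summed level of 4 ovary germline markers (osk, vas, otu and bam) ran from 529 to 719 CPM on day 0, 1110 to 1720 CPM on day 10 and 1910 to 2200 CPM on day 50. Muscle markers summed to 29600 to 46300 CPM on day 0, 5140 to 19200 CPM on day 10 and 328 to 451 CPM on day 50. Plasmatocyte markers summed to 105 to 173, 84 to 166 and 28.2 to 44.6 CPM on these days. The part of these markers in the differences between days was not tested.

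upd3 in CD daughters had 2.87, 3.38, 2.17, 2.83 and 1.87 CPM on day 50, against 0.19, 0.285, 0.727, 0.77 and 0.766 CPM on day 10. All libraries of day 50 were above those of day 10, and upd3 rose by 1.98 ± 0.46 (adjusted p = 0.00323, edgeR). Socs36E had 30.3, 52.2, 39.3, 34.2 and 24 CPM on day 50, against 18.5, 20, 26.2, 26.6 and 22.1 CPM on day 10, and these groups overlapped and the difference did not pass. On day 10 over day 0 Socs36E fell by 0.56 on the log2 scale (SE 0.2, adjusted p = 0.0201), with 33.6, 27.4, 28.5 and 29.8 CPM on day 0. Stat92E had 287 to 314 CPM on day 50, against 198 to 242 CPM on day 10, a rise of 0.15 ± 0.05 (adjusted p = 0.0314) that was lost without f19, f20, f33, f34 or f35, with adjusted p up to 0.0774. The CPM levels of Stat92E imply a larger difference, 0.41 on the log2 scale, because of the scaling difference given above.

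In HFD daughters 4 of 7 members passed on day 50 over day 10, where 63.1% of genes were called. On day 10 over day 0, 0 of 7 passed and 0% of genes were called, with 2 members at an unadjusted p below 0.05 in edgeR and 0 called by DESeq2. Over all genes 1053 of 10548 had such a p in edgeR. The share of genes called was 13% without f19, f21, f22 and m45 and 24.5% without the libraries most similar to another sex or day. Ovary germline markers summed to 2050 to 2410 CPM on day 50, against 235 to 1310 CPM on day 10, and muscle markers to 282 to 784 CPM on day 50, against 5940 to 25500 CPM on day 10. The part of these markers in the member differences was not tested. upd1 fell by 1.19 (SE 0.33, adjusted p = 0.00886), with 0.682, 0.49, 0.383, 0.695 and 0.427 CPM on day 50, against 0.53, 1.28, 1.04, 1.21 and 0.875 CPM on day 10. The groups overlapped through f21 alone on day 10. et fell by 1.05 (SE 0.32, adjusted p = 0.0127), with 7.4, 4.06, 5.46, 4.17 and 3.2 CPM on day 50, against 5.57, 6.99, 6.78, 9.67 and 10.8 CPM on day 10. Socs36E fell by 1.11 (SE 0.27, adjusted p = 0.00435), with 24.1, 16.7, 17.5, 12.9 and 8.9 CPM on day 50, against 23.9, 39.1, 21.9, 23.1 and 31.1 CPM on day 10. Both of these pairs overlapped through f36, the highest library of day 50. hop rose by 0.79 ± 0.28 (adjusted p = 0.0266), with 121 to 185 CPM on day 50, against 36.8 to 85.3 CPM on day 10, and this call was lost without f21 (adjusted p = 0.0516). dome had 170 to 216 CPM on day 50, against 46 to 122 CPM on day 10, and did not pass (0.66 ± 0.31, adjusted p = 0.0737).

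In HSD daughters the calls fell between day 10 and day 0, where 4 of 6 members passed and 73.3% of genes were called. On day 50 over day 10, 0 of 6 passed and 0.901% of genes were called, with 1 member at an unadjusted p below 0.05 in edgeR and 0 called by DESeq2. Over all genes 1339 of 10432 had such a p in edgeR. The day 0 group held f12, f13 and f15, each most similar to another sex or day. Ovary germline markers summed to 1450 to 2090 CPM on day 10, against 134 to 1380 CPM on day 0, and muscle markers to 1290 to 6590 CPM on day 10, against 6340 to 53900 CPM on day 0. The part of these markers in the member differences was not tested. et had 2.64, 2.44, 3.51, 3.32 and 2.96 CPM on day 10, against 7.28, 5.29, 8.46, 8.62 and 8.09 CPM on day 0, and fell by 1.52 (SE 0.24, adjusted p = 0.000561) with no overlap. Socs36E had 16.6, 11.5, 21.1, 31.8 and 16.2 CPM on day 10, against 44.6, 29.7, 24.8, 52.9 and 31 CPM on day 0, and fell by 1.08 (SE 0.28, adjusted p = 0.00423). The Socs36E groups overlapped through f29 on day 10. dome rose by 0.98 ± 0.27 (adjusted p = 0.00555), with 136 to 187 CPM on day 10, against 37.9 to 122 CPM on day 0, and hop rose by 1.31 ± 0.27 (adjusted p = 0.00119), with 92.3 to 160 CPM on day 10, against 25.3 to 77.4 CPM on day 0. Neither gene's groups overlapped.

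The age differences depended on sex for several members in CD progeny, tested as the difference between the fold changes of sons and daughters. For day 50 over day 10, 5 of 8 members passed, where 44.6% of genes were called. The fold change in sons minus that in daughters was -3.2 ± 0.62 for upd1 (adjusted p = 0.000154, edgeR), 2.42 ± 0.61 for upd3 (adjusted p = 0.00218), 0.65 ± 0.16 for dome (adjusted p = 0.0015), 1.13 ± 0.25 for et (adjusted p = 0.000741) and 1.72 ± 0.27 for Socs36E (adjusted p = 1.08e-05). The fold changes of upd3 and Socs36E were thus higher in sons, and that of upd1 lower. For day 10 over day 0, 3 of 8 passed, where 49.4% of genes were called, with differences of -0.89 ± 0.16 for dome (adjusted p = 0.000118), -1.04 ± 0.19 for hop (adjusted p = 0.000127) and 1.18 ± 0.26 for et (adjusted p = 0.000719).

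Sons and daughters differed in most members on days 10 and 50, as they did in most genes tested. On day 10, 4 of 6 members passed for each maternal diet, where 80.8% (HSD), 66.9% (HFD) and 82.8% (CD) of genes were called. On day 50, 7 of 8 (HSD), 7 of 7 (HFD) and 7 of 8 (CD) passed, where 79.9%, 87.2% and 88% of genes were called. On day 0, 3 of 6 (HSD), 1 of 6 (HFD) and 4 of 6 (CD) passed, where 33.5%, 7.44% and 52.6% of genes were called. The median log2 fold change over all genes was 0.53 in the HSD and 0.52 in the HFD comparison of day 50, and 0.28 (HSD) and 0.22 (CD) on day 10, so differences of sons over daughters are to be read against these shifts.

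upd1 was higher in sons on days 0 and 10 under every maternal diet. On day 10 it had 4.79 to 8.07 CPM in CD sons, against 1.14, 0.357, 1.15, 0.462 and 1.15 CPM in CD daughters. The log2 fold change, sons over daughters, was 3.17 ± 0.33 in CD (adjusted p = 2.35e-06, edgeR), 3.22 ± 0.22 in HFD (adjusted p = 2.8e-07) and 2.71 ± 0.64 in HSD progeny (adjusted p = 0.00251). HSD sons and daughters overlapped on day 10 through m27 at 1.17 CPM. On day 0 the fold change was 3.12 ± 0.39 in CD, 3.93 ± 0.62 in HFD and 2.68 ± 0.54 in HSD progeny, and each passed (adjusted p up to 0.00753). On day 0 the highest daughter library was f12 at 3.09 CPM and the lowest son library m8 at 0.947 CPM, both among the libraries that resembled the other sex.

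On day 50 upd1 was not higher in sons of CD mothers. CD sons had 0.0906 to 1.05 CPM of upd1, against 0.463, 1.1, 1.22, 0.943 and 0.325 CPM in CD daughters, groups that overlapped (-0.24 ± 0.54, adjusted p = 0.682). HFD sons had 4.43 to 5.28 CPM, against 0.682, 0.49, 0.383, 0.695 and 0.427 CPM in HFD daughters (3.34 ± 0.29, adjusted p = 3.18e-06, edgeR). HSD sons had 0 to 6.38 CPM with a median of 2.03 CPM, against 0.662, 0.656, 0.493 and 0.547 CPM in HSD daughters (2.25 ± 1.03, adjusted p = 0.0634). The test of whether the HFD effect on upd1 differed between the sexes on day 50 gave 3.62 ± 1.1 (adjusted p = 0.12).

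upd2 and upd3 were higher in sons on day 50. In CD progeny upd3 had 4.24 to 10.3 CPM in sons, against 1.87 to 3.38 CPM in daughters, with no overlap (1.61 ± 0.27, adjusted p = 0.000157, edgeR). In HFD progeny upd3 had 1.84 to 3.29 CPM in sons, against 0.309 to 2.04 CPM in daughters, an overlap through f36 (1.51 ± 0.54, adjusted p = 0.0253), and the call was lost without m36 or m38 (adjusted p up to 0.0911). In HSD progeny it had 0 to 24.7 CPM in sons, against 0.284 to 0.574 CPM in daughters (4.06 ± 1.28, adjusted p = 0.0132), with m45 the only son at 0. upd2 was higher in CD sons, with 1.21 to 7.2 CPM, against 0.244 to 1.2 CPM in daughters (2.53 ± 0.58, adjusted p = 0.00157). It was also higher in HSD sons (4.06 ± 1.4, adjusted p = 0.0201), a call lost without f41, f42 or f43 (adjusted p up to 0.0562).

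The receptor dome and the kinase hop were lower in sons. On day 10 dome had 39.3 to 51.8 CPM in CD sons, against 102 to 153 CPM in CD daughters (-1.37 ± 0.1, adjusted p = 8.11e-08, edgeR), and hop had 24.9 to 32.8 CPM in CD sons, against 63.3 to 126 CPM in CD daughters (-1.57 ± 0.15, adjusted p = 1.15e-06). On day 50 dome had 72 to 110 CPM in CD sons, against 167 to 186 CPM in daughters (-0.91 ± 0.1, adjusted p = 4.81e-06), and hop had 36 to 46.2 CPM in CD sons, against 124 to 148 CPM in daughters (-1.7 ± 0.08, adjusted p = 5.84e-09). Sons and daughters did not overlap in either gene on day 10 or 50 under any maternal diet. In the other diets the log2 fold changes on these days ran from -1.72 to -1.03 for dome and from -2.28 to -1.09 for hop, and each passed. Ovary germline markers summed to 6.15 to 10.4 CPM in CD sons on day 10, against 1110 to 1720 CPM in CD daughters. The library m8, labelled as a son, had 191 CPM of dome and 150 CPM of hop beside its ovary marker sum of 2290 CPM. The part of ovary RNA in these differences was not tested.

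On day 0 the differences of dome and hop were smaller. CD sons had 33.2 to 44.7 CPM of dome, against 51.6 to 64.7 CPM in CD daughters (-0.37, adjusted p = 0.0212, edgeR), and 23.8 to 29.3 CPM of hop, against 34.1 to 45.6 CPM in daughters (-0.43, adjusted p = 0.0176). The dome call was lost without m1, m4, m5, f3 or f5 (adjusted p up to 0.0651) and the hop call without f3 or f5 (adjusted p up to 0.0663). The hop call in HSD progeny (-0.91, adjusted p = 0.0492) was lost without any of m11 to m15, f13 or f15 (adjusted p up to 0.105). In HFD progeny neither passed, and without m8 both did, at -0.98 for dome (adjusted p = 0.0373) and -0.97 for hop (adjusted p = 0.024), in a fit that called 52.8% of genes.

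The antagonist et was higher in sons on days 10 and 50. On day 10 it had 8.89 to 11.8 CPM in CD sons, against 4.47 to 7.62 CPM in CD daughters (0.97 ± 0.18, adjusted p = 0.000292, edgeR). On day 50 it had 14.9 to 21.1 CPM in CD sons, against 3.74 to 6.84 CPM in CD daughters (1.9 ± 0.18, adjusted p = 1.35e-06). The groups did not overlap on either day. In HFD progeny the fold change was 0.62 ± 0.19 on day 10 (adjusted p = 0.0161, with overlap) and 1.64 ± 0.29 on day 50 (adjusted p = 0.000438). In HSD progeny it was 2.29 ± 0.23 on day 10 (adjusted p = 9.63e-06) and 1.46 ± 0.49 on day 50 (adjusted p = 0.0182). On day 50 the HSD groups overlapped, with the son m45 at 2.61 CPM below every daughter, and the call was lost without f42 (adjusted p = 0.0559).

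Stat92E was slightly lower in sons on day 50, with 234 to 271 CPM in CD sons, against 287 to 314 CPM in CD daughters (-0.17, adjusted p = 0.023, edgeR). That call was lost without m34 (adjusted p = 0.0532). The fold change was -0.32 in HFD progeny (adjusted p = 0.00378) and -0.67 in HSD progeny (adjusted p = 0.0143), and sons lay below daughters in every library of both. On day 0 it was -0.26 in CD progeny (adjusted p = 0.0209), lost without m3, f2 or f4 (adjusted p up to 0.0641), and -0.57 in HSD progeny (adjusted p = 0.0321), lost without m12, m13, m14, f13 or f15 (adjusted p up to 0.0785). On day 10 it was 0.02 in HFD progeny (adjusted p = 0.888), and -0.17 without f19, f21, f22 and m45 (adjusted p = 0.0283).

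The target Socs36E was higher in sons on day 50 under every maternal diet. Sons had 60.5 to 123 CPM and daughters 24 to 52.2 CPM in CD progeny (1.44 ± 0.24, adjusted p = 0.000177, edgeR). Sons had 33.4 to 39.5 CPM and daughters 8.9 to 24.1 CPM in HFD progeny (1.4 ± 0.27, adjusted p = 0.000816). Sons had 22.7 to 206 CPM and daughters 11.2 to 15.8 CPM in HSD progeny (2.45 ± 0.54, adjusted p = 0.00171). No group of sons overlapped its daughters. On day 10 Socs36E passed for no maternal diet, with fold changes of 0.74 (HSD), -0.4 (HFD) and -0.08 (CD).

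**Figure D4:**
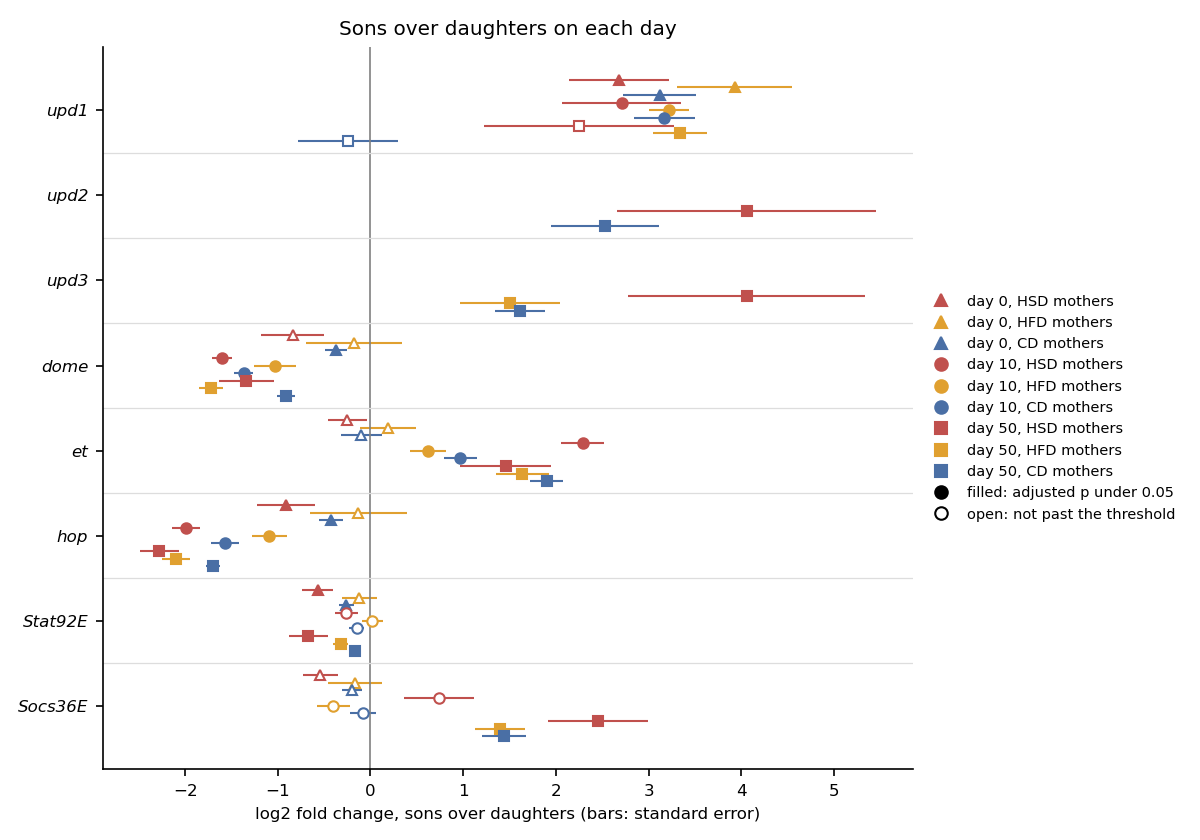
Log2 fold change of each member in sons over daughters for each day and maternal diet (edgeR; bars are standard errors, filled points passed an adjusted p of 0.05). dome and hop lie below 0 on days 10 and 50, et above 0 on these days, Socs36E above 0 on day 50 with values of 1.4 to 2.45, and upd1 above 0 except in CD progeny on day 50 at -0.24.

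The diet of the mother was followed by few member changes. Of 21 diet comparisons, 3 held a call, all in daughters, and 7 of 135 member tests passed. In the mothers themselves 0 of 7 members passed in each of 3 comparisons, where 0% of 10243 genes were called. Over these 21 tests, 1 was below an unadjusted p of 0.05 in edgeR and none was called with DESeq2. Over all genes 314 (HFD over CD), 949 (HSD over CD) and 831 (HSD over HFD) of 10243 were below it. In the progeny on day 0, in sons on days 10 and 50 and for HSD over HFD in daughters on day 50, 0% of genes and no member were called. For HSD over CD in sons on day 0, 4.29% of genes were called without m8, an HFD library in the same fit. That share was 0% when m1, m3 and m4 were left out too. In the 15 progeny comparisons with no member call, 12 of 96 member tests had an unadjusted p below 0.05 while DESeq2 called 2. Over all genes the number with such a p ran from 221 of 12591 (HFD over CD, sons on day 0) to 3627 of 12659 (HFD over CD, sons on day 50). In these 2 comparisons DESeq2 called 0.00794% and 19.2% of genes.

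In daughters on day 50, upd3 and Socs36E were lower after a maternal HSD and Socs36E also after a maternal HFD. With HSD over CD, 2 of 6 members passed, where 9.48% of 10132 genes were called. With HFD over CD, 1 of 6 passed, where 6.24% were called. upd3 had 0.284, 0.574, 0.423 and 0.365 CPM in HSD daughters, 2.04, 1.05, 1.25, 0.309 and 0.427 CPM in HFD daughters and 2.87, 3.38, 2.17, 2.83 and 1.87 CPM in CD daughters. HSD daughters lay wholly below CD daughters, and HFD daughters overlapped them through f36. The log2 fold change was -2.67 ± 0.49 for HSD over CD (adjusted p = 0.00626, edgeR) and -1.42 ± 0.41 for HFD over CD (adjusted p = 0.0605), the last at an adjusted p of 0.00769 without f36.

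Socs36E on day 50 had 14.5, 11.2, 15.8 and 15.8 CPM in HSD daughters, 24.1, 16.7, 17.5, 12.9 and 8.9 CPM in HFD daughters and 30.3, 52.2, 39.3, 34.2 and 24 CPM in CD daughters. HSD daughters were all below CD daughters, and HFD daughters overlapped them by f36 alone, at 24.1 against 24 CPM. It fell by 1.37 on the log2 scale for HSD over CD (SE 0.28, adjusted p = 0.0108, edgeR) and by 1.2 for HFD over CD (SE 0.26, adjusted p = 0.013). These comparisons share the CD daughters. dome, et, hop and Stat92E did not pass in either, and upd1 and upd2 were not tested. The summed level of 4 enterocyte markers was 288 to 1210 CPM in HSD daughters, 72.7 to 1550 CPM in HFD daughters and 1320 to 2230 CPM in CD daughters, and 2 of the 4 were lower in each comparison. Plasmatocyte markers summed to 43.9 to 105 CPM in HSD, 42.2 to 65.7 CPM in HFD and 28.2 to 44.6 CPM in CD daughters. The part of either cell type was not tested.

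The diet effect on Socs36E in daughters depended on the day for HFD against CD, with an F of 8.26 over days 0, 10 and 50 (adjusted p = 0.0346, edgeR), 1 of 7 members where 4.98% of genes were called. The call was lost without f16, f17, f20, f22, f25, f32, f37, f39 or f40 (adjusted p up to 0.0746). HFD daughters had 19 to 43.3 CPM on day 0, 21.9 to 39.1 CPM on day 10 and 8.9 to 24.1 CPM on day 50, and CD daughters had 27.4 to 33.6, 18.5 to 26.6 and 24 to 52.2 CPM on these days. For HSD against CD 0 of 7 passed, where 1.09% of genes were called, with an F of 8.66 for upd3 (adjusted p = 0.0614) and 7.13 for Socs36E (adjusted p = 0.0996). In sons 0 of 8 passed for either diet, where 0.00766% (HSD) and 0% (HFD) of genes were called. Over the 3 day-dependence comparisons with no call, 8 of 23 tests had an unadjusted p below 0.05 while DESeq2 called 2. Over all genes 1907 of 10971 (HSD, daughters), 3143 of 13058 (HFD, sons) and 721 of 13058 (HSD, sons) had such a p.

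In daughters on day 10, members differed between HSD and HFD progeny, as did most genes tested, and no member passed against CD progeny. With HSD over HFD, 4 of 6 members passed, where 66.3% of 10354 genes were called. With HFD over CD and HSD over CD, 0 of 6 passed, where 0.0483% and 0% of genes were called, with 2 members in each at an unadjusted p under 0.05 and 0 and 1 called by DESeq2. Over all genes 2950 (HFD over CD) and 2397 (HSD over CD) of 10354 had such a p, and DESeq2 called 8.96% and 2.32%. For HFD over CD edgeR called 17.1% of genes without f19, f21, f22 and m45 and 6.1% without the libraries most similar to another sex or day. For HSD over CD, et had 2.44 to 3.51 CPM in HSD daughters, against 4.47 to 7.62 CPM in CD daughters, with no overlap (-1.05 ± 0.23, adjusted p = 0.206, edgeR). It passed without f29 (adjusted p = 0.0343). dome had 176, 172, 187, 136 and 172 CPM in HSD daughters, against 75.1, 46, 122, 112 and 110 CPM in HFD daughters (0.68 ± 0.2, adjusted p = 0.0112, edgeR). hop had 156, 160, 156, 92.3 and 151 CPM in HSD daughters, against 54.8, 36.8, 85.3, 74.6 and 72.2 CPM in HFD daughters (0.96 ± 0.22, adjusted p = 0.00344). Receptor and kinase were higher in every HSD library than in any HFD library, with f29 the lowest HSD library in both.

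et ran the other way on day 10, with 2.64, 2.44, 3.51, 3.32 and 2.96 CPM in HSD daughters, against 5.57, 6.99, 6.78, 9.67 and 10.8 CPM in HFD daughters (-1.59 ± 0.23, adjusted p = 0.00106, edgeR). These groups did not overlap. Zw, which shares exon bases with et on the opposite strand, averaged 38.7 ± 7.22 CPM in HSD daughters and 65.7 ± 20.9 CPM in HFD daughters (SD, n = 5 each). Socs36E had 16.6, 11.5, 21.1, 31.8 and 16.2 CPM in HSD daughters, against 23.9, 39.1, 21.9, 23.1 and 31.1 CPM in HFD daughters, and overlapped through f29 (-0.68 ± 0.26, adjusted p = 0.0341). That last call was lost without f22, f25, f26, f27, f28 or f30 (adjusted p up to 0.089).

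Tissue markers also differed between these daughters. Ovary germline markers summed to 1450 to 2090 CPM in HSD daughters, against 235 to 1310 CPM in HFD daughters, and 2 of 4 were higher. Muscle markers summed to 1290 to 6590 CPM in HSD daughters, against 5940 to 25500 CPM in HFD daughters, and 4 of 4 were lower. Plasmatocyte markers summed to 48.1 to 149 CPM in HSD daughters, against 95.3 to 312 CPM in HFD daughters, and 5 of 5 were lower. The HFD group held f21 and f22, the libraries most similar to day 0, and without f19, f21, f22 and m45 the fold changes were 0.38 for dome (adjusted p = 0.00231), 0.7 for hop (adjusted p = 0.0026), -1.78 for et and -0.54 for Socs36E (adjusted p = 0.117). The part of these markers in the member differences was not tested.

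In sons on day 50 the levels of several members differed with maternal diet without passing the threshold. With HFD over CD, 0 of 8 members and 0% of 12659 genes passed, with 3 members at an unadjusted p under 0.05 in edgeR and 1 called by DESeq2. Over all genes 3627 of 12659 had such a p in edgeR, and DESeq2 called 19.2%. upd1 had 5.28, 4.8 and 4.43 CPM in HFD sons, against 0.484, 1.01, 1.05, 0.643 and 0.0906 CPM in CD sons, a difference of 2.97 ± 1 (adjusted p = 0.0976), or an adjusted p of 0.0466 without m45, an HSD library in the same fit, where 18.7% of genes were then called. Socs36E had 39.5, 33.4 and 38.2 CPM in HFD sons, against 60.5 to 123 CPM in CD sons (-1.24 ± 0.53, adjusted p = 0.146). upd3 had 3.29, 2.48 and 1.84 CPM in HFD sons, against 4.24 to 10.3 CPM in CD sons (-1.5 ± 1.09, adjusted p = 0.411). None of these 3 pairs of groups overlapped, and all 3 HFD libraries were most similar to day 10 sons over all genes. With HSD over CD, 0 of 8 members and 0% of genes passed, with 2 members at an unadjusted p under 0.05 and 0 called by DESeq2. Over all genes 2057 of 12659 had such a p, and DESeq2 called 0.229%. HSD sons were the most variable group, with upd3 between 0 and 24.7 CPM and Socs36E between 22.7 and 206 CPM.

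No diet effect was shown to differ between sons and daughters. In 6 comparisons of that difference 0 of 40 member tests passed. On day 50 they called 0.109% (HSD over CD) and 0.202% (HFD over CD) of genes, on day 10 HFD over CD called 0.00779%, and the others 0%. Over the 40 there were 6 member tests at an unadjusted p under 0.05 in edgeR and 1 called by DESeq2. Over all genes the number with such a p ran from 117 of 12919 (HFD over CD, day 0) to 2347 of 12839 (HFD over CD, day 10). For Socs36E on day 50 the HFD effect in sons minus that in daughters was -0.01 ± 0.59 (adjusted p = 1).

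Across libraries of day 50 the target Socs36E moved with the cytokines upd2 and upd3. In the 14 sons' libraries of day 50, log2 levels of Socs36E and upd2 (pseudocount 0.5 CPM) had Pearson's r = 0.922 and Spearman's rho = 0.895, and r was 0.919 without the 2 libraries farthest from the median upd2. The permutation p of r was 1e-05, the smallest that 100000 resamples can give, and 0.00021 after adjustment over 21 relations of Socs36E with a cytokine. With upd3, r was 0.886 and rho 0.912 in the same sons (permutation p = 9e-05, adjusted 0.00063), and 0.777 without the 2 farthest. Libraries were permuted across maternal diets, so each permutation p also covers differences between diets. After subtracting the mean of each maternal diet, r was 0.891 for upd2 and 0.888 for upd3, and these values carry no test. upd1 had the opposite sign, with r = -0.646 and rho = -0.631 (permutation p = 0.0128, adjusted 0.0353), r = -0.509 without the 2 farthest and -0.433 within diets. Of these sons, m36, m38, m39, m40 and m45, all most similar to a younger day, had the highest upd1, at 4.43 to 6.38 CPM. They also had the lowest upd2, at 0 to 1.08 CPM, and the lowest Socs36E, at 22.7 to 39.5 CPM. The relations without these libraries were not tested.

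In the 14 daughters' libraries of day 50 the relation was with upd3, at r = 0.896 and rho = 0.873 (permutation p = 3e-05, adjusted 0.000315), 0.887 without the 2 farthest and 0.718 within diets. With upd2, whose levels were at 0 to 1.2 CPM there, r was 0.636 and rho 0.682 (adjusted p = 0.0353 by permutation), and 0.301 within diets. In sons on day 10 the r of 0.948 with upd3 rested on m27, since rho was 0.261 and r fell to 0.42 without the 2 farthest. In the 15 daughters of day 10 r with upd3 was 0.646 (adjusted permutation p = 0.0343) and in the 15 mothers 0.622 (adjusted permutation p = 0.0353, rho 0.486), and no relation passed on day 0. Both levels in each relation come from the same library and share its depth and scaling. The permutations ignored maternal diet, and in daughters on day 50 both upd3 and Socs36E were lower in HSD than in CD progeny. Their p-values therefore also cover differences between diets, and the r within diets was not tested.

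**Figure D5:**
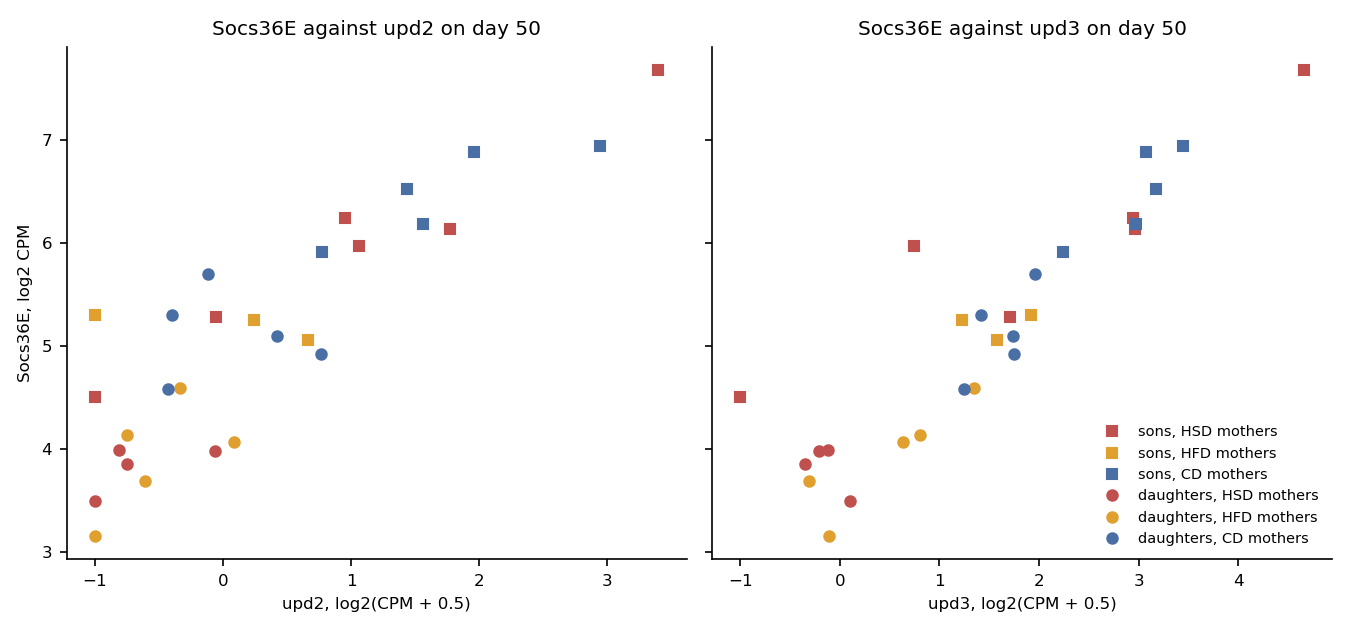
Socs36E (vertical axis, log2 CPM) against upd2 and against upd3 (horizontal axes, log2 of CPM plus 0.5) in the libraries of day 50, sons and daughters, coloured by maternal diet; each point is 1 library. In sons r is 0.922 with upd2 and 0.886 with upd3, with m41 at the upper end of both (Socs36E 206 CPM) and m45 at the lower end (22.7 CPM).

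Other genes of the pathway were counted from lists of 13 regulators, 5 JNK genes and 16 reported targets. These lists were chosen with earlier results of these data known, so their counts and medians are not separate evidence. In CD sons on day 50 over day 10, where 65.9% of all genes were called, 10 of 13 regulators were higher and 2 lower, with a median log2 fold change of 0.42 against 0.08 over all genes. They included Socs44A, a relative of Socs36E (1.12, adjusted p = 4.84e-07, edgeR), Stam, an endosomal sorting protein (0.82, adjusted p = 1.11e-05), and asrij (0.71, adjusted p = 3.97e-05). Of 12 targets tested, 8 were higher and 0 lower, with a median of 1.06. vir-1, a virus-induced gene, had 1410 to 1950 CPM on day 50, against 430 to 561 CPM on day 10 (1.77, adjusted p = 4.09e-07). Drsl2, a drosomycin-like peptide gene, had 19.9 to 108 CPM on day 50, against 0 to 0.324 CPM on day 10 (7.95, adjusted p = 9.88e-07), and Listericin, an antibacterial peptide gene, had 60.8 to 129 CPM on day 50, against 8.21 to 29.7 CPM on day 10 (2.49, adjusted p = 0.000328). Of 5 JNK genes, whose pathway acts upstream of upd3 in other settings, 3 were higher and 0 lower, among them puc, the feedback phosphatase, with 67.7 to 130 CPM on day 50, against 28 to 35.1 CPM on day 10 (1.39).

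In HFD sons on day 50 over day 10, where 1.59% of all genes were called, 2 of 11 targets were higher and 0 lower, vir-1 (1.43) and TotM (1.98), a Turandot stress gene. In CD daughters on day 50 over day 10, where 46.2% of all genes were called, 4 of 12 targets were higher and 1 lower, led by Drsl2 (5.46) and with chinmo, a transcription factor of the testis and nervous system, lower (-1.06). In daughters on day 50, 3 of 11 targets were lower and 0 higher in each diet comparison, where 9.48% (HSD over CD) and 6.24% (HFD over CD) of all genes were called. Drsl2 had 0.0704 to 2.74 CPM in HSD daughters, 0.0772 to 10.7 CPM in HFD daughters and 31.5 to 63.2 CPM in CD daughters. It fell by 5.76 on the log2 scale for HSD over CD (adjusted p = 0.00434, edgeR) and by 3.63 for HFD over CD (adjusted p = 0.011). TotA, another Turandot gene, had 8.2 to 30.8 CPM in HSD daughters, 5.2 to 17.8 CPM in HFD daughters and 23.6 to 106 CPM in CD daughters, and fell in both comparisons, by 1.66 for HSD (adjusted p = 0.0392) and 2.5 for HFD (adjusted p = 0.00437). The target lists' medians were -0.62 for HSD over CD and -0.52 for HFD over CD, against medians within 0.02 of 0 over all genes.

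In daughters on day 10, HSD over HFD, where 66.3% of all genes were called, 9 of 13 regulators were higher and 1 lower, with a median of 0.44 against -0.08 over all genes. Su(var)2-10, a PIAS-type inhibitor of Stat92E, was higher (1.19) and dally, a heparan sulphate proteoglycan, lower (-1.21). Of 11 targets, 1 was higher and 4 were lower, with a median of -1.2, among them vir-1 (-1.22) and Tep2, a thioester protein gene (-1.2). In sons over daughters of CD mothers on day 50, where 88% of all genes were called, 2 of 13 regulators were higher and 10 lower (median -1.55), and 8 of 12 targets were higher and 1 lower (median 2.03).

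Over the means of the 18 progeny groups, dome and hop had a Pearson r of 0.97 on the log2 scale, and 0.86 over deviations of the 87 libraries from their group means. upd2 and upd3 had r = 0.83 over group means and 0.52 over deviations, and upd3 and Socs36E 0.73 and 0.6. upd1 and dome had r = -0.81 over group means and -0.31 over deviations. These values describe points that share library, depth and sex and carry no test.

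The genes most like each member were taken from 12388 genes by the same measures. For hop they were D12, pds5 and Kdm5 (r of 0.998 to 0.999 over group means), with Kdm5 also among the nearest over deviations (0.962). For dome they were CG8950, CG7139 and Rcd5 (0.994 to 0.995), and over deviations rictor (0.945). For Stat92E, sima and botv were among the nearest by both measures (0.971 and 0.973 over means, 0.927 and 0.91 over deviations). For Socs36E, scb, an integrin alpha subunit gene, was nearest over means (0.953) and among the nearest over deviations (0.811). For upd1 the nearest were CG14111 (0.977), CG14635 and CG42831 (0.97 each), for upd3 Alg7 (0.976) over means and vsg (0.762) and Rel (0.747), the NF-kappaB factor of the Imd pathway, over deviations, and for et CG14762 (0.982) over means and Spn43Ab (0.82) over deviations.

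Levels in mothers are set beside those in daughters with no test, because the generations come from separate count tables. dome had 107 to 191 CPM in mothers with a median of 163 CPM, against medians of 60.4, 131 and 184 CPM in daughters on days 0, 10 and 50. hop had 111 to 152 CPM and Stat92E 251 to 317 CPM in mothers. upd1 had 0.276 to 2.28 CPM, upd2 0 to 1.39 CPM and upd3 0.0993 to 3.73 CPM in mothers, and Socs36E 15.5 to 67.3 CPM. et in mothers had 10.4, 23.1, 39.6, 7 and 3.85 CPM in HSD mothers, 5.24, 4.04, 8.33, 6.71 and 5.17 CPM in HFD mothers and 32.7, 7.29, 9.84, 4.85 and 4.85 CPM in CD mothers. The groups overlapped, and HSD over HFD gave 1.51 ± 0.63 (adjusted p = 0.609, edgeR). The HSD library s13 was the highest mother in et, upd3 and Socs36E.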

How the data were processed

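The authors deposited whole-number counts per gene in separate tables for mothers and progeny, with no normalization. The submitters' processing notes name kallisto, BDGP6, R 4.2.0 and DESeq2 1.36.0 without saying what each did, and no source at hand gives strandedness. Library columns were matched to samples by their names, 0 columns were left without a sample, and 10 gene identifiers had no symbol. The members and gene lists were chosen with earlier results of these data known.

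Levels are CPM after TMM scaling over each table. Tests used edgeR 4.0.16 in R 4.3.3 (quasi-likelihood F-test, TMM, genes with a count of at least 10 in enough libraries and 15 in total), fitted over all genes with Benjamini-Hochberg adjustment at 0.05. Diet was tested within each sex and day, sex within each diet and day, and age within each sex and diet, with interaction terms for their dependence. The scripts were tested on simulated data with known changes. Alternatives were DESeq2 1.42.0, median-of-ratios size factors, no filter on low counts, one fit over all 18 progeny groups, the library number as a term, leaving out each library, and leaving out sets of libraries. The set of libraries most similar to another sex or day was defined after seeing the data. It was picked by likeness to the sexes and days compared, so leaving it out tends to widen differences between sexes and days. Totals of 6332907 to 19469296 counts limit the precision. The exact interval of the upd3 count ratio covers counting error only. Standard errors of fold changes come from the edgeR fits and include the spread between libraries. The members are named in every comparison. Of each other list up to 4 called genes with the smallest adjusted p were eligible for naming, and for likeness the 3 genes with the highest r. A row of the marker lists was missing for Dl, nos and dec-1, which were not analysed here. No nucleotide or protein sequences were used here.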

Additional observations from a re-analysis of the deposited data

Results flagged for a closer look

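Of 159 sets of member levels within a group of 4 to 10 libraries, 23 held a library that stood far from the rest by Dixon's criterion, in 12 libraries. The criterion flags about 1 in 20 sets of normally distributed values. Levels near the counting limit need not be normal, and several flags share a library, so 1 in 20 is not the rate of chance here. No explanation was tested for any of them.

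Among mothers, s1 (CD) had 32.7 CPM of et with the next library at 9.84 CPM, and s7 (HFD) had the lowest dome, 107 CPM with the next at 155 CPM, and the highest Stat92E, 280 CPM with the next at 268 CPM. The HSD mother s13 had 1.39 CPM of upd2 with the next library at 0.374 CPM, 3.73 CPM of upd3 with the next at 1.12 CPM and 67.3 CPM of Socs36E with the next at 34.8 CPM.

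Among sons on day 0, m8 (HFD) had 191 CPM of dome, 150 CPM of hop and 282 CPM of Stat92E, with the next libraries at 44.4, 27.9 and 151 CPM. In the same age group m3 (CD) had 4.27 CPM of et with the next at 5.01 CPM, and m15 (HSD) had 25.8 CPM of hop with the next at 23.6 CPM. On day 10, m27 (HSD) had 2.65 CPM of upd2, 6.14 CPM of upd3, 21.9 CPM of et and 65.9 CPM of Socs36E, with the next libraries at 0.154, 0.29, 11.8 and 21.1 CPM. Also on day 10, m18 (CD) had 0.445 CPM of upd2 with the next at 0.0978 CPM, and m25 (HFD) had 32.2 CPM of dome with the next at 40.5 CPM. On day 50, m41 (HSD) had 10.1 CPM of upd2, 24.7 CPM of upd3 and 206 CPM of Socs36E, with the next libraries at 2.92, 7.29 and 76 CPM.

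Among daughters on day 10, f18 (CD) had 0.424 CPM of upd2 with the next at 0.077 CPM, and f29 (HSD) had the lowest hop, 92.3 CPM with the next at 151 CPM, and the lowest Stat92E, 210 CPM with the next at 281 CPM. The libraries s13, m27 and m41 were high in upd2, upd3 and Socs36E together.

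Other results were listed because a test of the difference between groups passed. In CD progeny the fold change of day 50 over day 10, sons minus daughters, was -3.2 for upd1, 2.42 for upd3, 0.65 for dome, 1.13 for et and 1.72 for Socs36E on the log2 scale. For day 10 over day 0 it was -0.89 for dome, 1.18 for et and -1.04 for hop. The effect of a maternal HFD against CD on Socs36E in daughters depended on the day with an F of 8.26.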

How the results depend on the processing

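None of the member values compared here reversed. Among differences that had not passed, leaving out m8 changed the sign of dome for HFD over CD sons on day 0 (0.56, and -0.23 without m8) and on day 10 over day 0 in HFD sons (-0.68, and 0.17 without m8). The 7 member calls of diet were 11 with DESeq2 and 11 in one fit over all 18 progeny groups. The 0 calls of sex dependence of the diet effects became 1 with DESeq2, 1 without f19, f21, f22 and m45, and 0 to 1 with 1 library left out. The 1 call of day dependence became 3 with DESeq2, 2 without m8 and f12, 2 without m1, m3, m4, m8 and f12, 5 without the libraries most similar to another sex or day, and 0 to 3 with 1 library left out. The Socs36E difference of HSD over HFD daughters on day 10 (-0.68) was -0.54 without f19, f21, f22 and m45, -0.40 without the libraries most similar to another sex or day, -0.52 in the fit over all groups, and -0.97 to -0.53 with 1 library left out, none of the first 3 passing. The upd3 difference of HSD over CD daughters on day 50 was -2.64 in the fit over all groups and no longer passed (adjusted p = 0.0812). The cause was not tested. Labels give sons and daughters the same library numbers. The deviations of same-numbered libraries from their group means had r of -0.36 to 0.39. With few pairs in each group and no pairs of different number beside them, these values cannot show whether the numbers mark a pairing. With the library number as a replicate block 37 of the 41 sex calls were made. Over the values compared, DESeq2 left 90 of 97 on the same side of the threshold, median-of-ratios factors 93 of 98, no filter on low counts 95 of 98 and the fit over all groups 72 of 88. Without m1, m3, m4, m8 and f12, 31 of 36 values stayed on the same side and 5 calls were lost. Among the lost calls were upd3 and Stat92E on day 10 over day 0 in CD sons (adjusted p = 0.194 and 0.11, edgeR without m1, m3 and m4). The other lost calls are not named here. Leaving these out keeps only m2 and m5 on day 0, and the calls of upd3 and Stat92E both held with any single library left out. Depth limits upd2, tested in 15 of 54 comparisons.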

Other observations

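The lists of the pathway, chosen with earlier results of these data known, also moved in other comparisons described above for the members. In CD sons on day 10 over day 0, 8 of 12 reported targets were higher and 1 lower, with a median log2 fold change of 1.95 against 0.04 over all genes, while 0 of 13 regulators were higher and 3 lower. The targets included the thioester protein genes Tep4 (2.11) and Tep2 (1.81) and the Turandot gene TotX (2.89). In HFD daughters on day 50 over day 10, 10 of 13 regulators were higher and 1 lower, with Su(var)2-10 at 1.11 and dally at -1.79, and 1 of 5 JNK genes was higher and 3 lower, with kay, the fly Fos gene, at -1.81. In HSD daughters on day 10 over day 0, 9 of 13 regulators were higher and 1 lower, 1 of 5 JNK genes was higher and 3 lower, and 1 of 11 targets was higher and 6 lower, with chinmo at -1.84 and vir-1 at -1.24. These counts use edgeR at an adjusted p of 0.05, with 27.9%, 63.1% and 73.3% of all genes called in the 3 comparisons.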
